A study of Mus musculus with 7 samples.

Results

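Plec, Dst, Macf1, Syne1 and Syne2 encode some of the longest cytoskeletal linker proteins of the mouse, and the Srsf3 peaks assigned to these 5 genes are described here. The genes were chosen on their peaks in these same lists, so that their numbers of peaks, and the exons in which the peaks lie, are a description and carry no test. The members are 106 distinct peak intervals of 14721 in all, 46 of them untreated and 60 called after PDGF-AA. No interval was identical in both lists.

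Peaks came from enhanced crosslinking and immunoprecipitation (eCLIP), in which UV light fixes RNA to the proteins that touch it and the RNA recovered with an antibody is sequenced. The protein was Srsf3, a serine/arginine-rich regulator of splicing, and the cells were iMEPM, an immortalized line from the embryonic palatal mesenchyme of the mouse. All cells were starved of serum and either received no ligand (untreated) or were given PDGF-AA, which activates the receptor PDGFRα, at 10 ng/mL for 1 h. The labels give 2 untreated Srsf3 libraries and 1 PDGF-AA Srsf3 library, with 1 input and 1 IgG library in each condition, and peaks were called once per condition. The lists therefore hold no replicates, no read counts and no scores, and Wilson intervals given below cover counting error only, treating peaks of 1 transcript as if they were independent. More RNA of a transcript and more binding to each RNA cannot be told apart in such lists.

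Plakins are large linkers that tie intermediate filaments, actin and microtubules to one another and to junctions. Plec encodes plectin, a linker of intermediate filaments, Dst encodes dystonin, and Macf1 encodes a linker of actin and microtubules. Many plakins join an actin-binding end and a plakin domain to a coiled-coil or spectrin-repeat rod and to plakin repeats. Nesprins, encoded by Syne1 and Syne2, are spectrin-repeat proteins that span the outer nuclear membrane through a KASH domain and meet SUN proteins there, which couples the nucleus to the cytoskeleton. SR proteins such as Srsf3 are known to bind exons and to influence which exons are kept.

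The bound RNA fell into a few kinds of sequence, of which the following peaks are examples, read from GRCm39 on the strand of the gene. In the first group, capitals mark GA-rich hexamers, by which are meant AGAAGA together with its shifted forms GAAGAA as well as AAGAAG, counted on the RNA strand with overlaps. The first lies in the exon with the most peaks of the 5 genes and the second is the widest peak. The Macf1 intron peak holds the most hexamers of its gene, and the last comes from a nesprin.
Plec exon 32, untreated, chr15:76063171-76063241, minus strand: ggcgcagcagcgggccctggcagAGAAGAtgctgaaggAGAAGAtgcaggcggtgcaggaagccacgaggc
Dst-212 exon 23, PDGF-AA, chr1:34217311-34217561, plus strand: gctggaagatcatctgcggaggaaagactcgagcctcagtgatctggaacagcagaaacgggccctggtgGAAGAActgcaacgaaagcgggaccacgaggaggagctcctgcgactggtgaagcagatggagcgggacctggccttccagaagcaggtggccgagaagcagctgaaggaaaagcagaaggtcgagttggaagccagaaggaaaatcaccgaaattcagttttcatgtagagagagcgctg
Macf1 intron, PDGF-AA, chr4:123393527-123393574, minus strand: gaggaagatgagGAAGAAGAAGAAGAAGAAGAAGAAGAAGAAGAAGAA
Syne1 exon 136, PDGF-AA, chr10:4997561-4997615, minus strand: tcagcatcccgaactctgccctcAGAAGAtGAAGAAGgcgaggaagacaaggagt

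The second group shows untreated peaks in introns. Capitals mark tandem runs of alternating C and A of at least 12 nt.
Plec intron, chr15:76094793-76094901, minus strand: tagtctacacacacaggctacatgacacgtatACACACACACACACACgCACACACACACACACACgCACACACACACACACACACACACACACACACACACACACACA
Syne1 intron, chr10:5180722-5180824, minus strand: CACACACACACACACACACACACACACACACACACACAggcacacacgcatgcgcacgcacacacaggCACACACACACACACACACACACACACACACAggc
Syne2 intron, chr12:76081609-76081670, plus strand: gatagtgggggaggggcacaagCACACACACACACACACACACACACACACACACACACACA

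Plec and Dst carried most of the peaks. Plec held 22 untreated and 20 PDGF-AA peaks, Dst 14 and 20, Macf1 6 and 9, Syne1 3 and 9, and Syne2 1 and 2. By the sum over both lists Plec ranked 3 and Dst 5 among 5367 genes with a peak, while Macf1 ranked 41, Syne1 75 and Syne2 1212. Dst, Macf1, Syne1 and Syne2 had more peaks after PDGF-AA and Plec had fewer, against 50.6% of all genes with more and 26.7% with fewer. The 5 genes together rose from 46 to 60 peaks, a ratio of 1.30, and the whole lists from 6396 to 8384, a ratio of 1.31. They made up 0.719% of the untreated list and 0.716% of the other. Of annotated protein-coding genes 16.0% had an untreated peak and 20.2% a PDGF-AA peak.

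**Figure D1:**
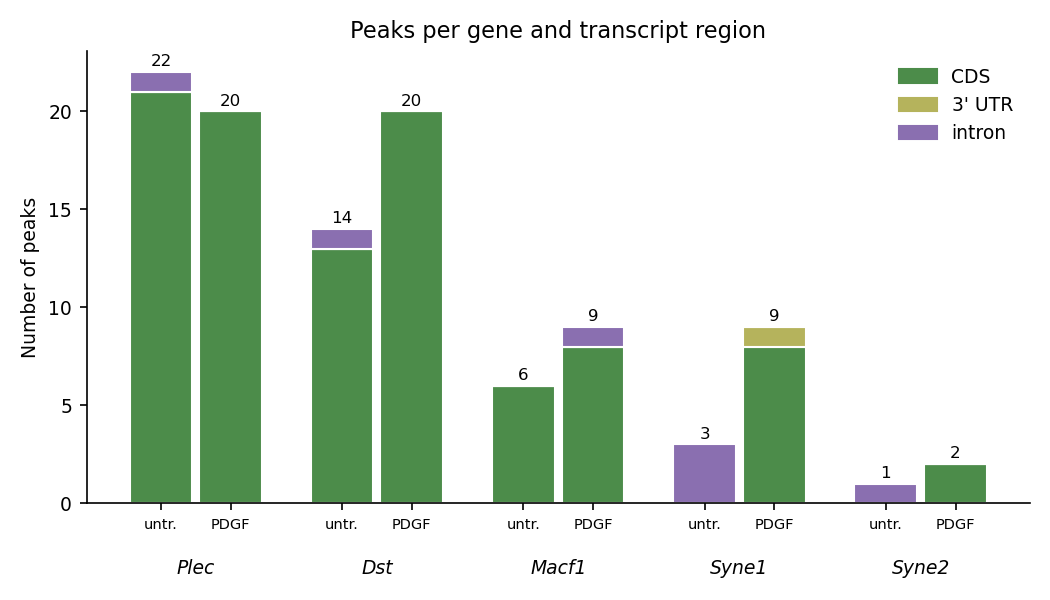
Number of peaks per gene (vertical axis) in the untreated (untr.) and PDGF-AA (PDGF) lists, stacked by transcript region. Coding sequence (CDS) holds 40 of 46 untreated and 58 of 60 PDGF-AA peaks, and all 4 untreated peaks of Syne1 and Syne2 are in introns.

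Nearly all peaks of the plakins lay in coding sequence (CDS), and the nesprins had peaks there in the PDGF-AA list only. CDS held 40 of the 46 untreated peaks, 87.0% (Wilson 95% interval 74.3 to 93.9%), and 58 of the 60 PDGF-AA peaks, 96.7% (88.6 to 99.1%). Over all protein-coding genes 54.7% of untreated and 81.9% of PDGF-AA peaks were in CDS. For Plec the number was 21 of 22 and 20 of 20, for Dst 13 of 14 and 20 of 20, and for Macf1 6 of 6 and 8 of 9. Syne1 had 0 of 3 untreated and 8 of 9 PDGF-AA peaks in CDS, and Syne2 0 of 1 and 2 of 2. No member lay in a 5′ UTR, and the only 3′ UTR peak was in Syne1 after PDGF-AA.

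By count a larger share of the peaks of these genes than of all peaks overlapped between the lists, and in CDS the excess lay in a pair of long exons described below. Of the 46 untreated peaks 32 overlapped a PDGF-AA peak by at least 1 nt on the same strand, 69.6% (55.2 to 80.9%), and of the 60 PDGF-AA peaks 27 overlapped an untreated peak, 45.0% (33.1 to 57.5%). Over all peaks the shares were 38.8% and 29.6%. Among CDS peaks alone they were 80.0% and 46.6% in the 5 genes, against 57.5% and 29.3% over all CDS peaks. Peaks of the 5 genes were also wider, with a median of 71.5 nt untreated and 66.5 nt after PDGF-AA, against 48.0 and 49.0 nt over all peaks, and the part of width in the overlap was not tested. Merging both lists gave 73 sites, of which 26 were in both, 14 in the untreated list only and 33 in the PDGF-AA list only.

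Shared peaks were found in the 3 plakin genes and in neither nesprin. In Plec 18 of 22 untreated and 15 of 20 PDGF-AA peaks were shared, in Dst 10 of 14 and 8 of 20, and in Macf1 4 of 6 and 4 of 9. None of the 12 peaks of Syne1 and none of the 3 of Syne2 was shared. A lack of overlap with 3 and 1 untreated peaks says little, since these lay in introns and the PDGF-AA peaks in exons. Among the 33 overlapping pairs the centres lay a median of 15.5 nt apart, and the PDGF-AA peak was the wider in 23 pairs, with median widths of 101 and 73.0 nt. Without Plec, an alternative added after seeing the data, 30.0% of PDGF-AA peaks were shared.

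**Figure D2:**
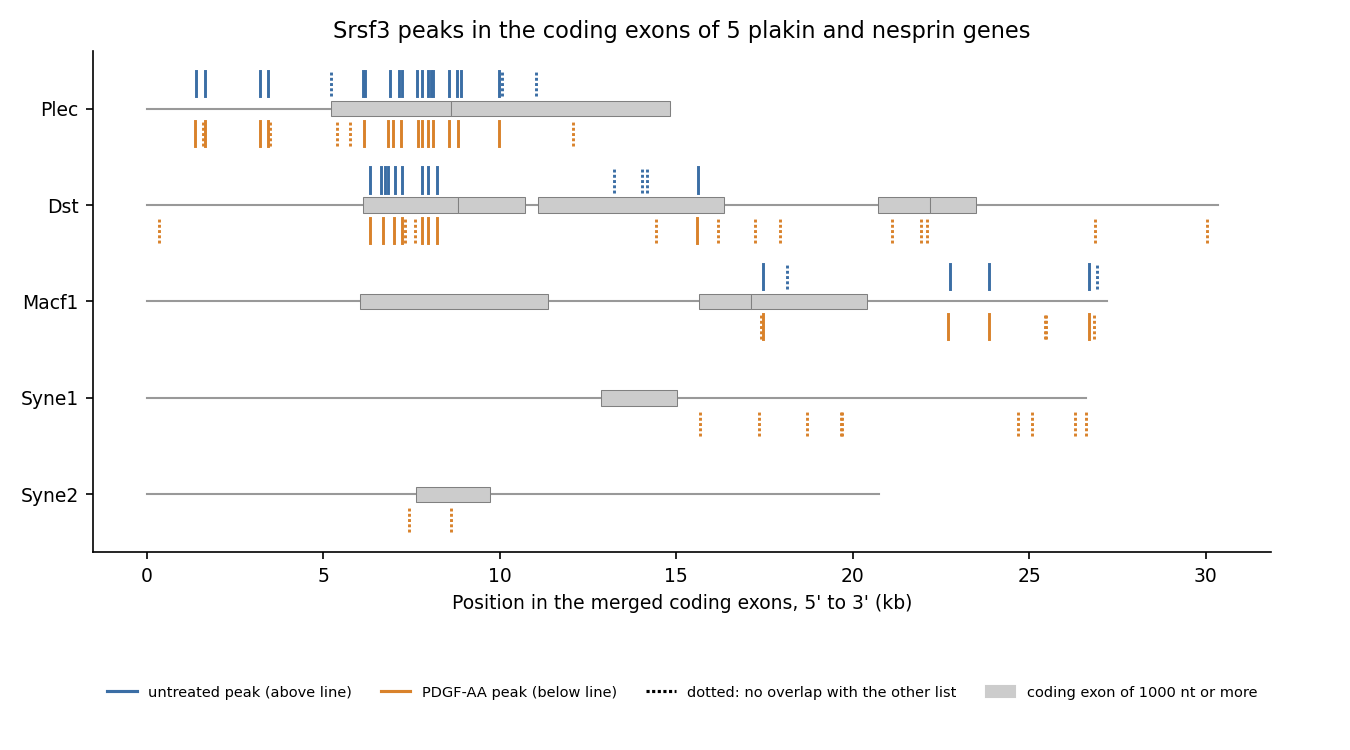
Peaks along the merged coding exons of each gene, from 5′ to 3′ in kb, with untreated peaks above and PDGF-AA peaks below the line, dotted where a peak has no overlap in the other list, and grey boxes for coding exons of 1000 nt or more. Plec and Dst peaks crowd in the long exons, the 8 coding peaks of Syne1 lie outside its only box, the 7 intron peaks are not drawn, and of the 3′ UTR peak of Syne1 its coding bases are drawn.

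Each of the 5 genes has at least 1 long coding exon. Coding exons of at least 1000 nt, called giant exons here and merged over transcripts, make up 30.6% of the coding bases of the 5 genes, against 14.6% in all 5299 protein-coding genes with a peak. By gene the share was 64.8% in Plec, 41.7% in Dst, 37.0% in Macf1, 10.1% in Syne2 and 8.12% in Syne1, so that the nesprins lay below the share of all bound genes. There are 2 in Plec, 5 in Dst, 3 in Macf1 and 1 each in Syne1 and Syne2. Giant exons held 31 of 40 untreated CDS peaks, 77.5% (62.5 to 87.7%), and 32 of 58 PDGF-AA CDS peaks, 55.2% (42.5 to 67.3%). Over all protein-coding genes with a peak the shares were 15.6% and 14.9%.

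Per length, the giant exons of the 5 genes carried 0.847 untreated peaks per kb against 0.108 in their shorter coding exons, a ratio of 7.82 (3.78 to 16.2 by counting error). After PDGF-AA the densities were 0.875 and 0.313 peaks per kb, a ratio of 2.80 (1.68 to 4.66). Over all bound protein-coding genes the ratios were 1.08 and 1.02. The number of giant-exon peaks was thus nearly the same in both lists, 31 and 32, while the number in shorter coding exons went from 9 to 26. Over all bound protein-coding genes giant-exon peaks went from 532 to 1002 and those in shorter coding exons from 2883 to 5734. The ratios for the 5 genes pool genes that differ in peak density and in their share of giant exons, and the genes differed among themselves. In Dst the giant exons held 13 peaks untreated against 0 in the shorter exons, in Plec 16 against 5, and in Macf1 2 against 4. The untreated ratio was 1.74 for Plec and 0.850 for Macf1. In the PDGF-AA list it was 4.19 for Dst, 1.27 for Plec, 0.566 for Macf1 and 0 for Syne1, and the 2 Syne2 peaks were split between its giant and a shorter exon.

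**Figure D3:**
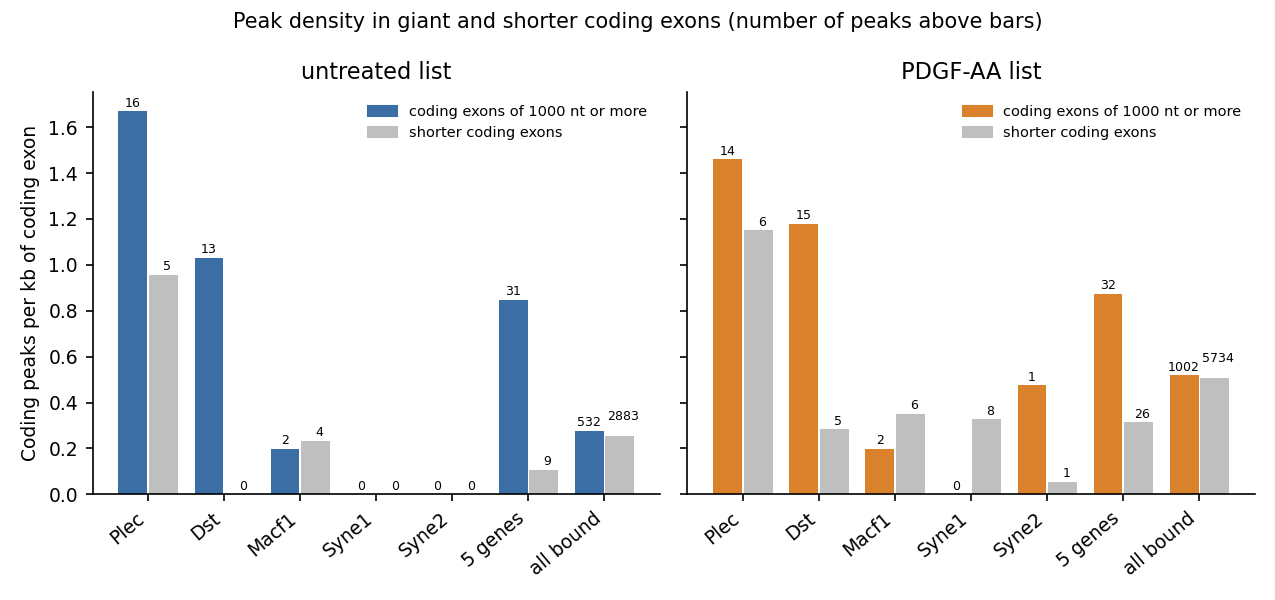
Coding peaks per kb of coding exon (vertical axis) in giant exons (coloured) and shorter coding exons (grey) for each gene, the 5 genes together and all 5299 protein-coding genes with a peak (all bound), with the number of peaks above each bar. In Dst no untreated peak lies in the shorter exons, and all bound genes show nearly equal bars.

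A pair of exons held the most peaks. They were exon 32 of Plec-205, with 11 untreated and 11 PDGF-AA peaks, and exon 23 of Dst-212, with 9 and 9. Together they held 43.5% of the untreated and 33.3% of the PDGF-AA peaks of the 5 genes. All 20 untreated peaks there overlapped a PDGF-AA peak and 16 of the 20 PDGF-AA peaks overlapped an untreated one. Elsewhere in the coding exons of the 5 genes sharing was lower, with 12 of 20 peaks untreated (60.0%) and 11 of 38 after PDGF-AA (28.9%), next to 57.5% and 29.3% of all CDS peaks. The peaks in this pair of exons were wider, with medians of 76.0 and 91.5 nt against 57.0 and 53.5 nt elsewhere. The pair was picked for its number of peaks, and peaks of a list covered 26.5 to 39.4% of each exon. Crowded and wide peaks can overlap by position alone, and this part of the sharing was not tested.

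Exon 32 of Plec-205, the transcript of Plec with the longest CDS, lies on chromosome 15 at 76062719 to 76066099 on the minus strand. It is the penultimate of 33 exons, is 3381 nt long, and is wholly coding. In plectin a single long exon encodes the coiled-coil rod through which the protein dimerizes, and skipping it yields rodless plectin. Of the 14 annotated protein-coding transcripts that span the exon, 13 include it and Plec-211 does not. Untreated peaks covered 26.5% of its bases and PDGF-AA peaks 30.1%. The untreated peak at 76064349 to 76064510, the widest untreated one of the gene with 162 nt, met PDGF-AA peaks at both of its ends. The PDGF-AA list alone held peaks at 76065542 to 76065596 and at 76065895 to 76065957, toward the 5′ end of the exon.

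The last exon of Plec, which holds 6213 coding bases and encodes the plakin repeats that contact intermediate filaments, carried 5 untreated and 3 PDGF-AA peaks, 0.805 and 0.483 per kb against 3.25 and 3.25 in exon 32. Of these, 3 untreated and 2 PDGF-AA peaks were shared. The widest Plec peak, at 76062251 to 76062489 with 239 nt in the PDGF-AA list, lay 96 nt from the 5′ edge of this exon and covered 2 untreated peaks. Shorter Plec exons 4, 7, 18 and 20 each held 1 peak in both lists, exons 6 and 21 only in the PDGF-AA list and exon 31 only in the untreated list. Exons 4, 6 and 7 encode the amino-terminal part of the protein.

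Exon 23 of Dst-212 lies on chromosome 1 at 34216877 to 34219579, on the plus strand, and is 2703 nt long. Of the 6 protein-coding transcripts that span it, only Dst-212 includes it, as the exon before its last. Dst also makes a short form, BPAG1e, known from the hemidesmosomes of the epidermis, and whether Dst-212 is that form was not tested. For the other 5 transcripts this stretch is intron, so that RNA of Dst-212 and unspliced RNA of the others cannot be told apart. Peaks covered 27.3% of the exon untreated and 39.4% after PDGF-AA. The widest member of all, 251 nt at 34217311 to 34217561, belongs here and overlapped 3 untreated peaks. The last exon of Dst-212, with 1899 coding bases, had 0 peaks in both lists. None of the 5 epithelial markers examined (Krt5, Krt14, Cdh1, Epcam and Dsp) had a peak in either list, and 3 of 6 palatal mesenchyme markers did (Prrx1, Twist1 and Pdgfra). Pdgfra had 1 peak, in the untreated list only. None of 3 endothelial and 3 muscle markers had a peak. Over all annotated protein-coding genes 16.0% had an untreated and 20.2% a PDGF-AA peak. A peak needs both RNA and binding, so that a marker without a peak is not shown to be absent.

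**Figure D4:**
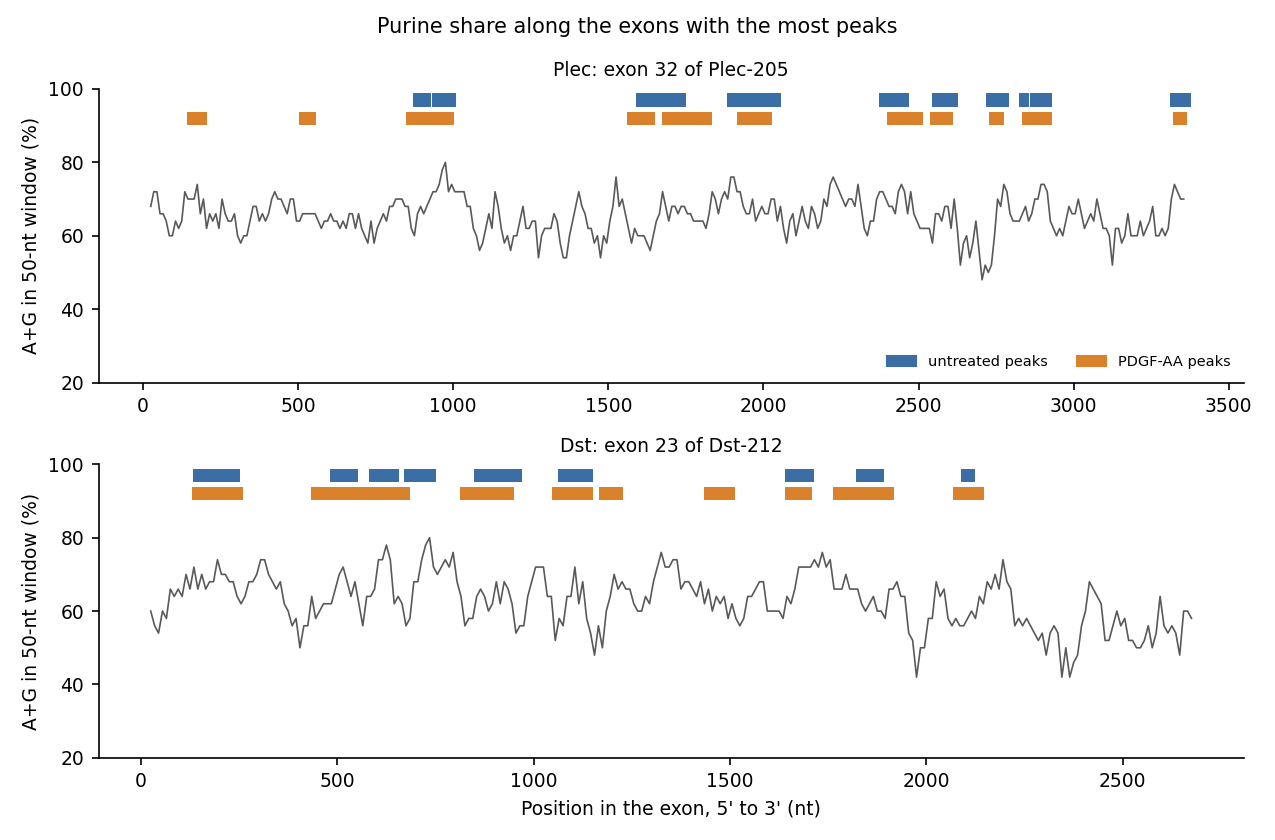
Share of A and G in windows of 50 nt (vertical axis, percent) along exon 32 of Plec-205 and exon 23 of Dst-212, by position from the 5′ edge in nt, with untreated and PDGF-AA peaks as bars above. All 20 untreated and 16 of the 20 PDGF-AA peaks overlap a peak of the other list, and in Dst the last part of the exon has none.

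Other Dst peaks were mostly seen in 1 list. Exon 39 of Dst-210, 5292 nt long and present in 3 of the 5 transcripts that span it, held 4 untreated and 3 PDGF-AA peaks, of which 1 in each list was shared. Exon 60, 1472 nt long, held 0 and 3. Exons 3, 44, 80 and 102 each held 1 PDGF-AA peak and no untreated peak. The only Dst peak outside the exons was untreated, at 34313857 to 34313923, with a CA run of 18 nt.

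In Macf1 the longest exon was empty. Its exon of 5331 coding bases, exon 36 of Macf1-203 on chromosome 4 at 123364800 to 123370130, had 0 peaks in both lists, and so did its exon of 1472 nt. Of 8 transcripts that span exon 36, 1 includes it and 7 do not. The first exon of Macf1-205 has 3270 coding bases and is found in 1 of 7 transcripts that span it. The other 6 leave it out, so that RNA of Macf1-205 and unspliced RNA of the others cannot be told apart. This exon held 2 peaks in each list. One peak there, untreated at 123304134 to 123304180, had a counterpart with the same start at 123304134 to 123304182 after PDGF-AA, and 47 nt were common to both. Exons 69, 76 and 96 of Macf1-203 held 1 shared peak in each list. In exon 97 an untreated peak at 123245616 to 123245650 and a PDGF-AA peak at 123245702 to 123245737 did not overlap. Exons 86 and 87 held PDGF-AA peaks only.

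Syne1 and Syne2, like Macf1, had fewer coding peaks per kb than all bound protein-coding genes. Syne1 peaks after PDGF-AA lay in exons 80, 90, 98, 105, 135, 136 and 144 of the 146 exons of Syne1-205, with 2 in exon 105, and in the 3′ UTR of exon 146. All of these exons are in the second part of the transcript by exon number, and the giant exon 77, with 2161 coding bases, had 0 peaks. Exon 144 and exon 146 belong to the end of the gene that encodes the KASH domain. The Syne2 peaks after PDGF-AA lay in exon 47 and in exon 48, which has 2104 coding bases, of 116 exons. CDS peak density in the PDGF-AA list was 1.35 per kb for Plec, 0.659 for Dst, 0.301 for Syne1, 0.294 for Macf1 and 0.0965 for Syne2, with 0.511 over all bound protein-coding genes. Untreated, it was 1.42 for Plec, 0.429 for Dst, 0.221 for Macf1 and 0 for both nesprins, with 0.259 over all.

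Over the 5 genes 14 exons carried an untreated and 33 a PDGF-AA peak, and 13 carried both. Of the exons with a PDGF-AA peak 7 held more than 1. Internal coding exons of the longest transcripts with a PDGF-AA peak had a median length of 189 nt and a median GC content of 55.6% (29 exons), against 156 nt and 50.0% for the 454 without a peak in either list. For the 11 exons with an untreated peak the medians were 167 nt and 57.1%. These medians pool genes of different GC content. Within Plec the GC medians were 57.4% untreated and 57.1% after PDGF-AA against 59.0% for its unbound exons, and within Syne2 48.7% after PDGF-AA against 50.6%. Bound exons were higher within Macf1, at 55.6% and 54.5% against 47.4%, and within Syne1, at 53.1% after PDGF-AA against 50.0%. Within Dst the medians were 49.2% untreated (1 exon) and 51.4% after PDGF-AA against 49.4%.

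Exons used by only some transcripts took a large part of the peaks, although this number depends on the annotation. A coding peak was counted as isoform-specific where at least 1 of the protein-coding transcripts spanning it left its exon out. This held for 26 of 40 untreated, 65.0%, and 25 of 58 PDGF-AA coding peaks, 43.1%, while such sequence makes up 25.1% of the coding bases. Plec gave 11 and 11 of these, Dst 13 and 12, Macf1 2 and 2, and the nesprins 0. With transcripts of the basic annotation set alone, 13 and 12 were left, 32.5% and 20.7%, next to 16.2% of the coding bases. All of them were in Dst. The only transcript that skips exon 32 of Plec and the transcript with the bound first exon of Macf1 are not in that set. The share of such peaks over all CDS peaks of the series was not computed. Without Dst the share of untreated peaks was 48.1%.

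Peaks in the coding exons were rich in purines. A and G made up 65.8% of the bases of untreated and 63.3% of PDGF-AA coding peaks, against 56.2% of coding bases outside all peaks of these genes. Purines were over 50% of the bases in 37 of 40 untreated and 53 of 58 PDGF-AA coding peaks. The values were close among the plakins untreated, 65.7% in Plec, 66.5% in Dst and 64.4% in Macf1. After PDGF-AA Plec had 64.5%, Dst 64.2%, Syne1 62.0%, Macf1 57.4% and Syne2 53.9%. The median over coding peaks was 66.7% and 63.7%, against 61.5% and 62.5% over all CDS peaks of the series. In exon 32 of Plec, itself rich in purines, bases under peaks had 67.7% and the rest of the exon 63.9%. In the last exon of Plec the values were 63.7% and 51.3%, and in exon 23 of Dst-212 64.0% and 61.8%.

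GA-rich hexamers had a higher density under the pooled PDGF-AA peaks than in the rest of the coding exons. The interval for pooled untreated peaks held the pooled outside value. These hexamers were chosen with motifs of the same lists known, so that their densities are a description, and because hexamer starts overlap the intervals are too narrow. The intervals of the lists overlapped. Hexamers began at 8.37 per kb of start positions in PDGF-AA coding peaks (6.05 to 11.6) and at 4.48 per kb in untreated ones (2.57 to 7.82), against 4.11 per kb outside all peaks. The ratios to the outside were 2.04 and 1.09. These ratios pool genes whose outside densities differed, from 2.51 per kb in Plec to 5.89 in Syne2. Plec held 1557 of the 2676 start positions in untreated peaks but 12369 of the 111449 outside, so that the ratios also depend on the mix of genes. At least 1 such hexamer was present in 9 of 40 untreated coding peaks, 22.5%, and in 23 of 58 PDGF-AA coding peaks, 39.7%, with 24.6% and 32.9% over all CDS peaks. Summed over peaks, the pair of long exons held 10 hexamers untreated and the other coding peaks 2, and after PDGF-AA these numbers were 12 and 24.

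By gene, Syne1 had the highest hexamer density under PDGF-AA peaks, 22.9 per kb (11.7 to 44.6), against 4.05 outside. Dst had 8.59 (5.21 to 14.1) against 3.88, and Plec 5.89 (3.20 to 10.8) against 2.51. Macf1, at 4.65 (1.28 to 16.8) against 3.80, and Syne2, at 12.7 (2.24 to 68.3) against 5.89, had intervals that held the outside value. Untreated Plec peaks had 5.14 per kb (2.61 to 10.1), an interval that also lay above the 2.51 outside. Untreated Dst had 3.46 (1.18 to 10.1) against 3.88 and Macf1 3.98 (0.704 to 22.2) against 3.80. In exon 32 of Plec the density was 7.79 per kb under peaks of either list and 0.471 in the rest of the exon, but in the last exon of Plec it was 2.07 and 4.23, and in exon 23 of Dst-212 2.70 and 4.68.

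**Figure D5:**
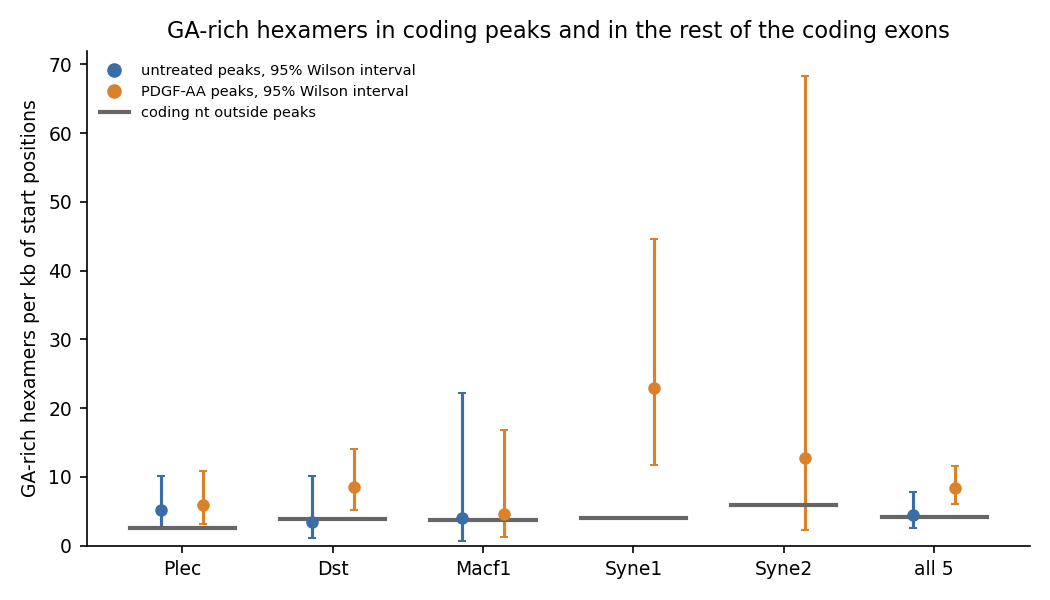
GA-rich hexamers per kb of start positions (vertical axis) in coding peaks of each gene and of all 5, with 95% Wilson intervals, and a grey line for coding sequence outside peaks. The PDGF-AA intervals of Plec, Dst, Syne1 and all 5 and the untreated interval of Plec lie above the line, and the nesprins have no untreated coding peak to plot.

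Pooled over the genes, codons for the charged residues Glu, Lys and Arg were more frequent under the peaks than outside, and Asp was not counted. Codons for Glu, Lys and Arg were 38.9% (35.8 to 42.1%) of the 936 whole codons under untreated coding peaks and 34.7% (32.3 to 37.1%) of the 1493 under PDGF-AA peaks, against 23.2% of codons outside. Glu alone was 18.4% and 16.8% against 10.6%. In Plec the Glu, Lys and Arg share was 40.8% untreated and 37.2% after PDGF-AA against 25.5%, and in Dst 36.6% and 36.0% against 22.4%. In Macf1 it was 35.2% (26.1 to 45.4%) and 27.6% (21.1 to 35.2%) against 22.2%, and in Syne1 29.6% (22.3 to 38.1%) after PDGF-AA against 23.6%, and both PDGF-AA intervals held the outside value. In Syne2 it was 4 of 28 codons, 14.3% (5.70 to 31.5%), against 23.7%. Gln, which is frequent in coiled coils, was 10.6% and 10.2% against 7.61%. Codons for Glu, Lys and Arg consist mostly of purines, so that these shares and the purine shares are not independent.

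Most of the few untreated intron peaks of these genes lay on CA runs. Of 6 untreated intron peaks 5 held a tandem CA run of at least 12 nt, namely 1 in Plec, 1 in Dst, 2 in Syne1 and 1 in Syne2, with longest runs of 42, 18, 32, 38 and 40 nt. The like share among intron peaks of the whole untreated list was not computed. Over all peaks 16.9% untreated and 1.18% after PDGF-AA held such a run, and among the members the number was 5 of 46 and 0 of 60. None of these intron peaks overlapped a PDGF-AA peak. They lay between 216 and 18656 nt from the flanking exons. The remaining untreated intron peak, in Syne1 at 5218282 to 5218323, was 90.5% purine without a GA-rich hexamer. The only PDGF-AA intron peak was in Macf1, 91 nt downstream of an exon, with 31 hexamer starts in 48 nt and 97.9% purine bases.

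Distances to exon edges are bounded by exon length, and in giant exons they ranged from 1 to 2389 nt untreated and from 14 to 3438 nt after PDGF-AA. The median distance from a peak to the nearest exon edge was 871 nt untreated and 799 nt after PDGF-AA in giant exons, and 1.00 and 6.50 nt in shorter exons. Peaks that cross an edge were counted with a negative distance, down to -28 nt untreated and -1 nt after PDGF-AA. The medians for shorter exons are therefore signed and not typical absolute distances. Of the 9 untreated peaks in shorter coding exons 3 crossed an edge, and of the 26 PDGF-AA peaks 5 did, against 0 of 31 and 0 of 32 in giant exons. In 4 of these 9 and 9 of these 26 peaks the nearest end lay within 1 nt of the edge. When all intervals were moved back by 1 nt, 13 of 99 peaks in exons ended exactly on an edge and 3 crossed one, against 1 and 8 as deposited. All 5 PDGF-AA crossings were of 1 nt and were gone after the move, and the 3 that remained were untreated.

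Most pairs of equal-length exons between Dst and Macf1, and all between Syne1 and Syne2, were bound in neither gene. Of 484 internal coding exons in the longest transcripts of the 5 genes, 454 had no peak in either list. Of 52 exon pairs of equal length and at least 60% ungapped identity between Dst and Macf1, 1 pair was bound in both genes, exon 80 of Dst and exon 76 of Macf1, both of 198 nt and 62.6% identical. A further 3 pairs were bound in Macf1 alone, and 48 in neither. Plec shared 10 such pairs with Dst and 12 with Macf1, in which 5 and 6 Plec exons had a peak and no partner did. The closest of these was exon 6 of Plec, 80.6% identical to its partner in Dst and 82.8% to that in Macf1. No exon of 11 such pairs between Syne1 and Syne2 was bound. These pairs were examined after the positions of the peaks were known.

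Relatives of these genes were bound to different extents, next to 16.0% of protein-coding genes with an untreated and 20.2% with a PDGF-AA peak and a ratio of 1.31 between the whole lists. None of the other plakins examined (Dsp, Ppl, Evpl and Eppk1) had a peak. Of 8 other KASH and SUN genes, 7 of which the annotation holds by name, 2 had an untreated and 3 a PDGF-AA peak: Syne3 with 3 and 1 peaks, Sun2 with 2 and 2, and Sun1 with 0 and 1. Of 10 lamina and nuclear envelope genes 4 and 8 were bound, among them Lmna, which encodes lamins A and C, with 2 and 3 peaks, and Tmpo with 2 and 4. Of 9 spectrin and dystrophin genes 4 were bound in each list, with Utrn, which encodes utrophin, at 5 and 10 peaks and Sptan1 at 5 and 6. Vim and Nes were the bound members of 8 intermediate filament genes, with 2 and 3 and 1 and 1 peaks. Of 10 genes of microtubule plus ends 5 and 8 were bound, and their peaks went from 14 to 30. Clip1, which encodes a plus-end tracking protein, had 6 and 9 peaks, and Clip2 had 0 and 5.

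The genes most like each member were found by the distance between their untreated peaks, PDGF-AA peaks and shared untreated peaks. Nearest to Plec was Trio, which encodes an exchange factor for small GTPases, with 19, 17 and 12 peaks, at a distance of 7.35 peaks, so that Plec had no close match. Nearest to Dst was Fn1, which encodes fibronectin, with 12, 20 and 10 at a distance of 2.00. Macf1 had the same numbers as Myh10, a non-muscle myosin heavy chain gene, with 6, 9 and 4, and Clip1 was 1.00 away. Syne1 had the same numbers as Ldlrad4, with 3, 9 and 0. Syne2 was matched by 174 genes with 1, 2 and 0 peaks and is not distinguished by them.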

How the data were processed

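According to the submitters' notes, reads were trimmed (cutadapt 1.18) and aligned (STAR 2.7.9), with both GRCm38 and GRCm39 named. By the study's methods the authors removed reads of repetitive elements, which can lower peaks in repeats, used GRCm39, ran omniCLIP on each condition to find peaks and took gene annotation from RCAS. In the paper's read numbers the removal of repeats left the count of an untreated Srsf3 library unchanged. It lowered the counts of the other Srsf3 libraries, and its part in the CA run counts was not tested. The files deposited are peak intervals with a gene, without scores. The 5 genes, gene lists and alternatives were chosen with earlier results of these data known. Of 4 lists, the 2 full ones (6607 and 8623 rows) were used, and each distinct interval was counted once. The lists of unique peaks held no row of the 5 genes. Peaks were placed on GRCm39 with GENCODE M39 in the region that held most of their bases, with coding sequence before UTRs, and exons before introns, in ties, and numbered on the transcript with the longest CDS that holds them. Sequences are from GRCm39. Single peaks were named if widest, in a giant or isoform-specific exon, UTR or intron, with a CA run, or richest in GA hexamers. Scripts used Python with pandas and pysam and were tested on simulated data. Without replicates or read counts no test was run. The paper lists read numbers for each library, and depth was not adjusted for here. Input and IgG libraries were not analysed here, having no list. A further Dst peak is counted but not reported here by itself.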

Additional observations from a re-analysis of the deposited data

How the results depend on the processing

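Of 88 alternative values computed, 79 stayed within the counting error of the reported share or ratio or within 1.5 times the reported count. With only the longest-CDS transcript of each gene, the CDS share fell to 63.0% untreated and 78.3% after PDGF-AA, since exon 23 of Dst-212 and the first exon of Macf1-205 are not in those transcripts. With basic transcripts the isoform-specific share was 32.5% and 20.7%, next to 16.2% of the coding bases. Among alternatives added after seeing the data, leaving out Plec gave an isoform-specific untreated share of 78.9% and a shared PDGF-AA share of 30.0%, and leaving out Dst an isoform-specific untreated share of 48.1%. The ratio of peaks per kb between giant and shorter exons, over the 5 genes pooled, ranged from 5.47 to 10.8 untreated and from 2.21 to 2.93 after PDGF-AA over its alternatives, while by gene it was 1.74 and 1.27 in Plec, 0.850 and 0.566 in Macf1 and, after PDGF-AA, 0 in Syne1. Without CA run peaks, Syne1 kept 1 untreated peak and Syne2 had 0. No paired analysis was possible because peaks were called once per condition and the lists hold no replicates; for the same reason no replicate could be left out, and with no scores no stricter threshold could be applied. The untreated list rests on 2 libraries by the labels and the PDGF-AA list on 1.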
